A study of Mus musculus with 2 samples.

Results

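Imprinted growth genes were followed in Tie2Cre lineage cells, sorted from mouse embryo hearts on embryonic day 12.5, on 1 array of control and 1 array of Tbx20 mutant cells. The set was chosen by gene symbol, from genes known to be expressed from 1 parental allele and to act on growth. It holds 10 genes, beside the 18193 genes that single-gene probe sets name on the array: H19, Igf2r, Meg3 and Grb10, expressed from the maternal allele, and Igf2, Dlk1, Peg3, Mest, Ndn and Plagl1, expressed from the paternal allele. Of the 10, 9 were among those 18193 and had at least 1 probe set annotated to that gene alone, 37 probe sets in all. H19 had none, because its only probe set names a microRNA gene as well.

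Tie2Cre is a transgene in which the Tie2 promoter drives Cre in endothelial and endocardial cells, so that their descendants, among them cushion mesenchyme, are marked, and blood cells too. Control hearts were Tie2Cre;Tbx20 +/loxP and mutant hearts Tie2Cre;Tbx20 loxP/-, so both carried Cre and 1 floxed Tbx20 allele, and differed in the other allele, wild type in the control and null in the mutant. That null allele lies in every cell of the mutant embryo, outside the lineage as well. Flow cytometry kept live cells that stained for none of CD41, CD45 and Ter119, which mark blood, and whether embryos were pooled is not given in the sources used here. With 1 array per genotype no test between genotypes was possible and no value has a replicate, so every difference is one between these 2 arrays, and fewer cells of a type cannot be told apart from less RNA per cell. The arrays read total RNA and do not tell the parental alleles apart.

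Imprinted genes carry marks set in the egg or sperm that silence 1 parental copy, and many lie in clusters where a differentially methylated control region governs several genes at once. In mammals, several paternally expressed imprinted genes promote growth of the embryo and several maternally expressed ones restrain it. Igf2, a growth hormone of the embryo, and Igf2r, the receptor that clears it, are the textbook pair. In the developing heart, Igf2 comes from the epicardium and endocardium among other cells and acts on cardiomyocyte growth.

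The growth genes gave strong signal in the sorted cells and differed little between genotypes, with Meg3 and Dlk1 as the lowest in the mutant among the 9 genes with a probe set of their own. Values are MAS5 signals, a linear intensity for each probe set, and a ratio is mutant over control on the log2 scale. Each array's median signal, 91.3 in control and 82.4 in mutant cells, served as the floor under which a probe set was not taken as measured. Both arrays exceeded the floor on 28 of the 37 probe sets, 1 array did on 3 and neither on 6. The 6 were 2 of Peg3, 3 of Ndn and 1 of Meg3. Each of the 9 genes had at least 1 probe set with a signal over 1000 on both arrays.

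**Figure D1:**
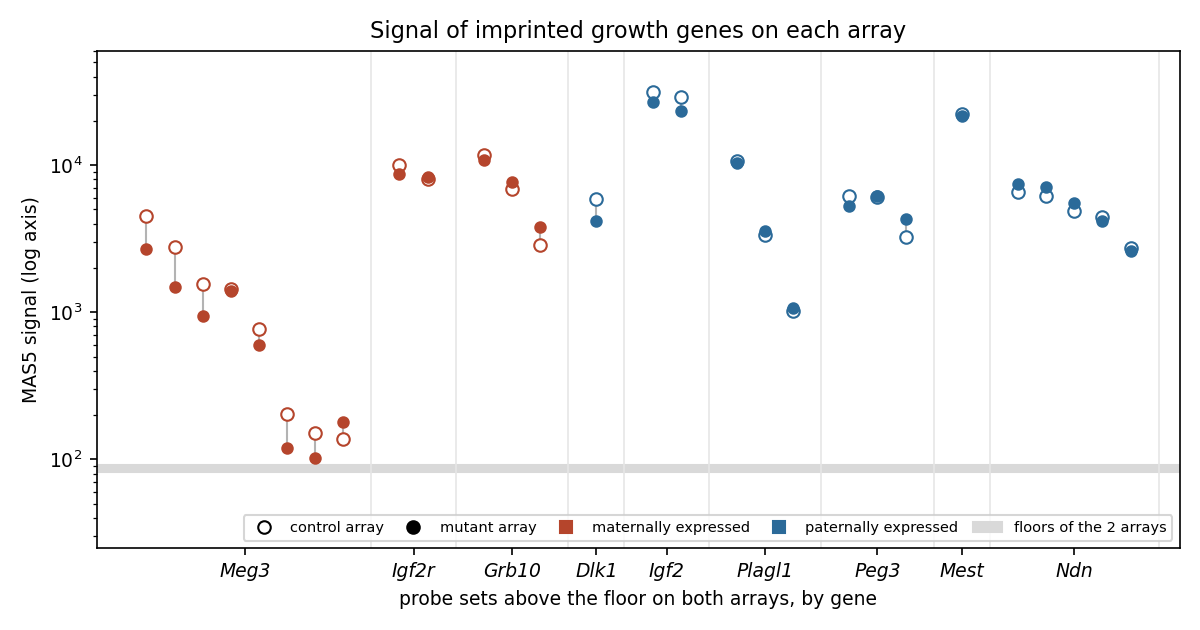
MAS5 signal (log axis) of the 28 measured probe sets, grouped by gene, with open circles for the control array and filled circles for the mutant array. Each vertical line joins the 2 arrays for 1 probe set, and the grey band spans the floors of 91.3 and 82.4. Most pairs lie close together, and the widest gaps are in Meg3, where 7 of 8 filled circles lie under the open ones.

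At least 1.5-fold lower in the mutant were 4 of the 28 measured probe sets, all 4 of them of Meg3, against 7.29% of 19273 measured probe sets of all genes. None was at least 1.5-fold higher, against 5.35% of all. None reached 2-fold, which 1.46% of all probe sets did as lower and 0.773% as higher. Counted by gene, where the brightest probe set stands for the gene, 1 of 9 was at least 1.5-fold lower, against 6.61% of 10665 measured genes, and 0 were at least 1.5-fold higher, against 4.37%. None of the 9 genes was at 2-fold, against 1.46% of genes lower and 0.647% higher. Bright genes vary less, and all 9 are bright: of the 4347 genes with a signal of 1000 or more, 2.94% were at least 1.5-fold lower. With Meg3 left out, the 20 other probe sets divided into 10 lower and 10 higher, from -0.49 to 0.42.

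Error could be gauged only from probe sets of the same gene, which read the same RNA and therefore say nothing of differences between embryos. Their log2 ratios had an SD of 0.31 over 2698 bright genes with several measured probe sets. Several of the growth genes' probe sets were designed on the same sequence record, 3 of Meg3 on 1 record, and pairs of Grb10, Igf2, Meg3 and Peg3 on others, so they are not independent readings.

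Meg3, a long noncoding RNA made from the maternal allele, was the lowest of the 9 measured growth genes in the mutant. Its brightest probe set read 4478 in control and 2708 in mutant cells, 60.5% of control and a log2 ratio of -0.73. The next read 2789 and 1482, 53.1% of control (-0.91), and its name ends in _x_at, a suffix for probes that may bind other transcripts. Another pair read 1552 and 949 (-0.71), and 1433 and 1404 (-0.03). The mutant array was thus lower on each of these 4 bright probe sets, although by very little on the last. Among its dimmer probe sets, 1 read 767 and 600 (-0.35) and 1 read 203 and 120 (-0.75). Another read 150 and 103 (-0.55), and the only higher one read 138 and 181 (0.39), close to the floor. In all, 7 of 8 measured Meg3 probe sets were lower in the mutant, with a mean of -0.46 (SD 0.44 over 8 probe sets). Of the rest, 1 was above the floor in the control only, at 98.6 against 74.1, 1 in the mutant only, at 89.4 against 44.4, and 1 on neither array. Only 1.70% of the 4347 bright genes had a ratio as low as that of the brightest Meg3 probe set.

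Dlk1, the paternally expressed partner of Meg3 in the same cluster, was second lowest of the 9 genes with a probe set of their own. It encodes a transmembrane protein with EGF-like repeats, related to Notch ligands, that holds back differentiation of fat and other mesenchymal precursors. Its bright probe set read 5846 in control and 4167 in mutant cells, 71.3% of control and a log2 ratio of -0.49. The other read 126 in control and 76.7 in mutant cells, under the floor there, so it was at least 1.53-fold lower. Both Dlk1 probe sets were therefore lower in the mutant, and 4.65% of bright genes had a ratio at or under that of the bright one.

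Other RNAs of the cluster did not all follow. Rian, a maternally expressed noncoding RNA that lies downstream of Meg3 on the same strand, was higher in the mutant on each of 3 measured probe sets. They read 2679 and 3269 (0.29), 2037 and 2324 (0.19), and 147 and 288 (0.97). Its 4th probe set read 69.8 in the control, under the floor, and 94.1 in the mutant. Mirg, the microRNA-bearing RNA beyond Rian, had 1 measured probe set, at 251 and 191 (-0.40). Meg3 and Rian are often viewed as pieces of 1 long transcription unit. By their brightest probe sets, at -0.73 and 0.29, they stood on opposite sides of 0 on these arrays. The Rian ratios of 0.29 and 0.19 were smaller than the SD of 0.31 between probe sets of bright genes. That of 0.97 came from a dim probe set, and genes under 200 had an SD of 0.49. The Rian ratios were not taken under other scalings, so how far Rian differs from Meg3 is uncertain. Rtl1 and Dio3, paternally expressed genes of the cluster, had no single-gene probe set.

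**Figure D2:**
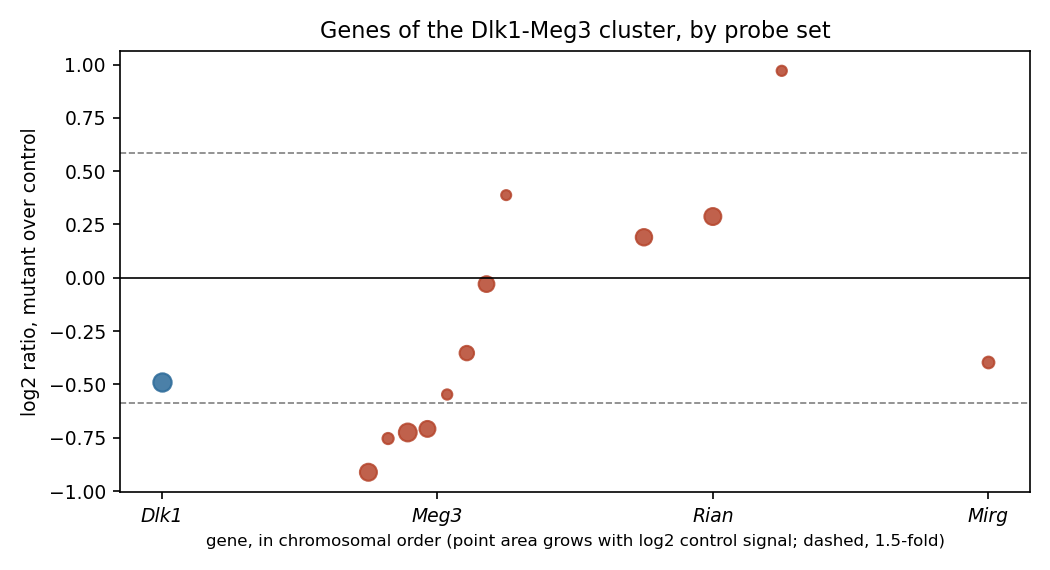
Log2 ratio of mutant over control for each measured probe set of Dlk1, Meg3, Rian and Mirg, in their order along the chromosome, with larger points for brighter control signals. Meg3 runs from -0.91 to 0.39 with 7 of 8 points under 0, Dlk1 is at -0.49 and Mirg at -0.40, while the 3 points of Rian lie between 0.19 and 0.97.

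Because Dlk1 and Meg3 were the lowest of these 9 genes and are neighbours, the 250 bases before their annotated starts are shown, from RefSeq on GRCm38.p6, 5′ to 3′. Capitals mark GGTGTGA or its reverse complement TCACACC, the core that T-box factors such as Tbx20 are known to bind, searched on both strands. Dlk1 starts on the plus strand after chr12:109452573-109452822, and Meg3, also on the plus strand, has one start after chr12:109540746-109540995 and another, inside the gene, after chr12:109545148-109545397.
Dlk1: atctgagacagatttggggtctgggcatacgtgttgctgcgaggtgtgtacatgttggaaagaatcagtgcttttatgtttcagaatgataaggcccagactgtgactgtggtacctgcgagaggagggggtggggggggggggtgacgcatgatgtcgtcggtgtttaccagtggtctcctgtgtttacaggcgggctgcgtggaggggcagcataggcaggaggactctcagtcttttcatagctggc
Meg3, first start: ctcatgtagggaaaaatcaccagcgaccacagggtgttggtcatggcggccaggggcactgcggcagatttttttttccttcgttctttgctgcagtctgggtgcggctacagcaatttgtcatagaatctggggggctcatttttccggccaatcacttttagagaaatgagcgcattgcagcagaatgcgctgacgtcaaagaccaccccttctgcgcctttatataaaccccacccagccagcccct
Meg3, start inside the gene: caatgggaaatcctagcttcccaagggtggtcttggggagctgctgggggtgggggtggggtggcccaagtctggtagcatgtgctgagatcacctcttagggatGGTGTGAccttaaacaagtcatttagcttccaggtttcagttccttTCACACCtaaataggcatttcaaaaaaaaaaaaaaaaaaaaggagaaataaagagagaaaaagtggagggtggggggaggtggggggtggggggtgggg

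The window before the internal Meg3 start held the motif in both orientations, beginning 145 and 99 bases before the start. The windows of Dlk1 and of the first Meg3 start held no such letters. Promoter sequences matched 9 of the 10 growth genes, with 16 annotated starts, and 2 of the 16 windows held the motif, against 3.33% of 32851 windows of the same length across the genome. The other was that of Peg3, on the minus strand at chr7:6730420-6730669, with the motif 241 bases before the start. Among the 3 Mest windows, 2 overlap almost wholly. A match describes letters and not a bound site, and Peg3 is a gene whose probe sets disagreed in sign.

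Igf2, the ligand, read high on both of its probe sets. These read 31331 in control and 26945 in mutant cells (-0.22), and 29235 and 23486 (-0.32), which is 86.0% and 80.3% of control. Both were lower in the mutant as deposited, but the brighter one was at 0.08 after quantile normalization and 0.00408 after loess, so its direction depends on the scaling. The other shrank to -0.02 after quantile normalization and -0.11 after loess. Set beside the SD of 0.31 between probe sets of bright genes, the first difference as deposited is smaller and the second about as large.

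The only probe set that names H19 is annotated to H19 and to Mir675, whose hairpin lies within H19, so it was not counted as H19. It read 31714 in control and 22283 in mutant cells, 70.3% of control and a log2 ratio of -0.51. This ratio is as deposited and was not taken under other scalings. At a like brightness, the brighter Igf2 probe set moved from -0.22 to 0.08 after quantile normalization and 0.00408 after loess. H19 is a maternally expressed noncoding RNA that shares enhancers with Igf2 and is cut to give miR-675. Array probe sets of this kind read the long RNA from its 3′ end and cannot show the mature microRNAs, which are printed here, from RefSeq on GRCm38.p6, to make clear what the shared annotation refers to. Capitals mark the seed, bases 2 to 8.
mmu-miR-675-5p: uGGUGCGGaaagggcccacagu
mmu-miR-675-3p: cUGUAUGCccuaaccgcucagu

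Igf2r, the receptor that carries Igf2 to lysosomes and so removes it, read 10084 in control and 8706 in mutant cells (-0.21) on its brighter probe set. The other read 8106 and 8304 (0.03), so its probe sets stood on opposite sides of 0 and differed by 0.25. Airn, the paternally expressed noncoding RNA that runs across Igf2r on the other strand and silences the paternal copy, was lower on all 4 of its measured probe sets. These read 2138 and 1623 (-0.40), 1378 and 825 (-0.74), 1203 and 822 (-0.55), and 396 and 221 (-0.84). A 5th probe set read 122 in control and 53.8 in mutant cells, under the floor there. Airn was thus lower throughout, while Igf2r was not lower on both of its probe sets. A probe set annotated to both Airn and Igf2r read 208 and 187 and was left out of both genes.

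Grb10, an adaptor protein that dampens insulin and IGF receptor signalling, had probe sets that went both ways. Its brightest read 11718 in control and 10843 in mutant cells (-0.11). The others read 6886 and 7706 (0.16), and 2883 and 3770 (0.39). The brightest probe set and the median over probe sets, at 0.16, differ in sign, so no direction can be given for Grb10.

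Plagl1, a zinc-finger transcription factor that regulates other imprinted genes, gave nearly equal signals on both arrays. It read 10760 and 10299 (-0.06), 3354 and 3568 (0.09), and 1019 and 1071 (0.07). All 3 of its probe sets lay within 0.09 of no difference, the closest agreement among the genes with 3 or more measured probe sets, with an SD of 0.084.

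Peg3, a zinc-finger protein linked to growth and cell survival, read 6124 in control and 6183 in mutant cells (0.01) on the probe set that stands for it. The others read 6201 and 5284 (-0.23), and 3228 and 4323 (0.42). Its probe sets spread over 0.65, around a mean of 0.07 (SD 0.33 over 3 probe sets).

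Mest, a hydrolase-like protein of mesoderm, had 1 probe set, at 22208 and 21587, 97.2% of control (-0.04), and its ratio was 0.18 after quantile normalization and 0.14 after a loess fit on brightness. Ndn, which encodes necdin, a restrainer of cell division in neurons and progenitors, was read by 5 measured probe sets. The 3 whose names end in _x_at, a suffix for probes that may bind other transcripts, read 6558 and 7409 (0.18), 6189 and 7075 (0.19), and 4848 and 5550 (0.20). The 2 plain ones read 4429 and 4164 (-0.09), and 2725 and 2613 (-0.06). The sign of the Ndn difference thus followed the kind of probe set, and every value was 0.20 or less in size. The 3 Ndn probe sets under the floor read 21.8 or less on both arrays.

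**Figure D3:**
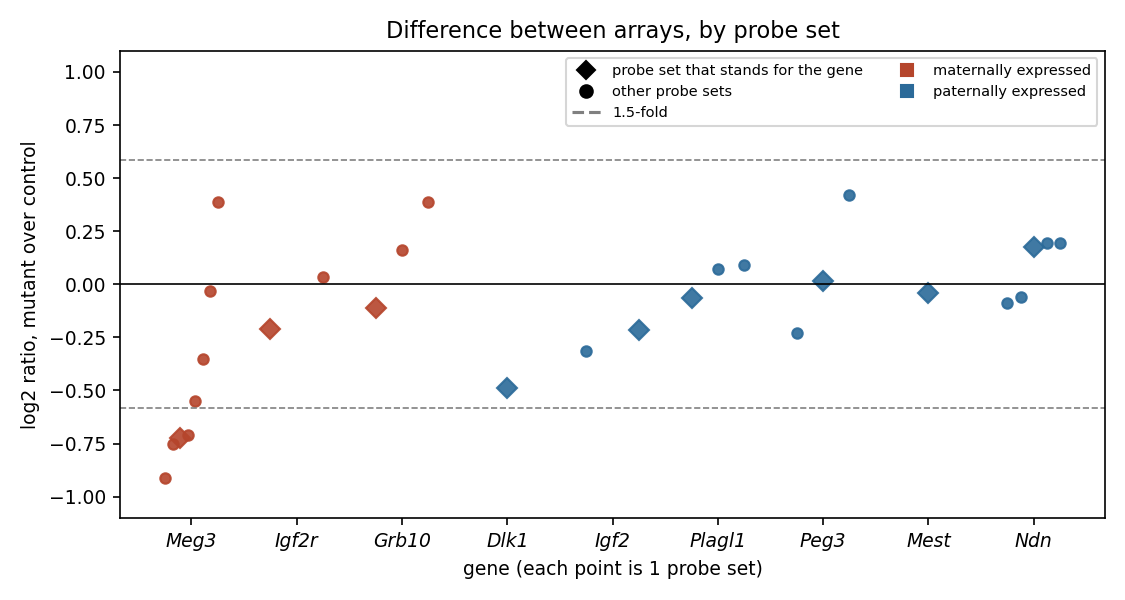
Log2 ratio of mutant over control for each of the 28 measured probe sets, by gene, with diamonds for the probe set that stands for the gene and dashed lines at 1.5-fold. Only 4 Meg3 points lie beyond a dashed line, and Igf2r, Grb10, Plagl1, Peg3 and Ndn each have points on both sides of 0.

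Lower ratios were found among both maternally and paternally expressed growth genes. The 3 measured maternal genes had ratios of -0.73, -0.21 and -0.11, with a median of -0.21. The last of these is Grb10, whose probe sets went both ways. The probe set shared by H19 and Mir675, at -0.51, is not among them. The 6 paternal genes ran from -0.49 to 0.18, with a median of -0.05 and 4 lower, so the ranges overlap. Over all 9 genes, 7 were lower and 2 higher, with a median of -0.11, against 51.0% lower and a median of -0.01 over 10665 genes. The median of the 9 was -0.000199 after quantile normalization and 0.00408 after loess, and -0.04 with the median over each gene's probe sets, so the small shift of the set moved with these choices.

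A list of 51 other imprinted genes, some of them imprinted only in other tissues such as placenta, had 29 measured members. Of these 12 were lower and 17 higher, with a median of 0.05, and 5 were at least 1.5-fold higher and 0 at least 1.5-fold lower, against 4.37% and 6.61% of all measured genes. Among maternally expressed genes, Klf14, a Krüppel-like factor near Mest, read 115 and 236 (1.04), dim on both arrays. Zim1, a zinc-finger gene beside Peg3, read 183 and 304 (0.73), and Copg2, a coat protein gene next to Mest, 1341 and 2059 (0.62). Slc22a18 read 126 and 192 (0.62) but its other probe set was at -0.22. Control signals of Klf14, Zim1 and Slc22a18 were under 200, and genes under 200 had an SD of 0.49 between probe sets. The lowest were Mirg at -0.40, Asb4 at 3043 and 2359 (-0.37), Cd81 at -0.15 and Cdkn1c, a growth-restraining CDK inhibitor, at 24216 and 22390 (-0.11). The other Asb4 probe set read 2359 and 1451 (-0.70). Cdkn1c, Gnas at 18376 and 17759, and Cd81 at 12923 and 11612 were the brightest. The Cdkn1c ratio was not taken under other scalings. At a like brightness, Mest moved from -0.04 to 0.18 after quantile normalization. In the paternal list, Usp29, a neighbour of Peg3, was highest at 593 and 919 (0.63), followed by Peg10 at 1183 and 1736 (0.55), Impact at 0.32 and Mcts2 at 0.22. Peg12, at 353 and 243 (-0.54), and Inpp5f, at 425 and 299 (-0.50), were the lowest, followed by Airn and by Kcnq1ot1 at -0.20. The other Inpp5f probe set was at -0.03. Nnat, Slc38a4 and Gab1 were the brightest other paternal genes and lay between -0.12 and 0.14.

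Measured neighbours within 500 kb of each growth gene, by the order in the GRCm38.p6 gene table, went both ways around all but Grb10 and Ndn. Around Meg3 and around Dlk1, 2 of 3 were lower, with Rian higher, and around H19, 8 of 14 were lower. Around Mest, 7 of 8 were higher, while Mest was at -0.04. Of these, 2 were higher by at least 1.5-fold, against 4.37% of all measured genes. Around Peg3, 4 of 7 were higher, Zim1 and Usp29 among them, and 3 lower, Zfp28 lowest at -0.46. Around Plagl1, 4 of 7 were lower and Pex3 was highest, at 391 and 644 (0.72). Around Igf2, 6 of 13 were lower, from the unnamed transcript R74862 at -0.97 to the antisense Igf2os at 99.1 and 201 (1.02), which is close to the floor in the control. Lsp1, also near Igf2, read 459 and 768 (0.74) and Tnnt3 291 and 194 (-0.59). Around Igf2r, 4 of 7 were lower, with Agpat4 lowest at -0.58. Both measured neighbours of Grb10, Fignl1 at -0.32 and an uncharacterised gene, were lower, and the only one of Ndn was Peg12.

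IGF system genes outside the imprinted set were mostly lower in the mutant. Of 13 measured, 10 were lower and 3 higher, with a median of -0.23, which was -0.08 with the median over each gene's probe sets. Irs1, the docking protein of insulin and IGF receptors, read 468 and 208 (-1.17) on 1 probe set. Igfbp4, an IGF-binding protein, read 21911 and 13656 (-0.68), though its 6 probe sets reached up to 0.40. Insr, the insulin receptor, was at -0.48, though its 3 measured probe sets ran from -0.66 to 0.28, and Irs2 was at -0.37. On the other side was Igf2bp1, an RNA-binding protein of Igf2 mRNA, at 1743 and 2099 (0.27) with all 3 measured probe sets higher. Igf1 read 8770 and 9305 (0.09), and Igf2bp3 was at 0.08. Last of the 4 highest was Igfbp5, itself slightly lower in the mutant at 11002 and 10518 (-0.06). Igf1 was higher on all 4 of its probe sets, in contrast to Igf2 as deposited.

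Genes listed for imprint control were mostly slightly higher. Most of them keep or set imprints, but the list also holds Dicer1, which acts in making microRNAs. By the brightest probe set, 9 of 10 measured genes were higher and 1 lower, with a median of 0.17, and none reached 1.5-fold. Dnmt3b, a de novo DNA methyltransferase, read 502 and 654 (0.38), and Dnmt3a, its relative, 4513 and 5427 (0.27). Uhrf1, which guides methylation after replication, read 3467 and 4087 (0.24) and Dicer1 was at 0.23. Dnmt1, the maintenance methyltransferase, was at 0.10, but 2 of its 3 measured probe sets were lower, down to -0.27. Ezh2 and Eed of the Polycomb complex were both at 0.12, and Zfp57, a zinc-finger protein that binds imprinted control regions, was the 1 lower member at -0.11. The brightest were Trim28, the partner of Zfp57, at 6734 and 7752 with its other probe set at -0.16, Dnmt3a and Dnmt1.

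**Figure D4:**
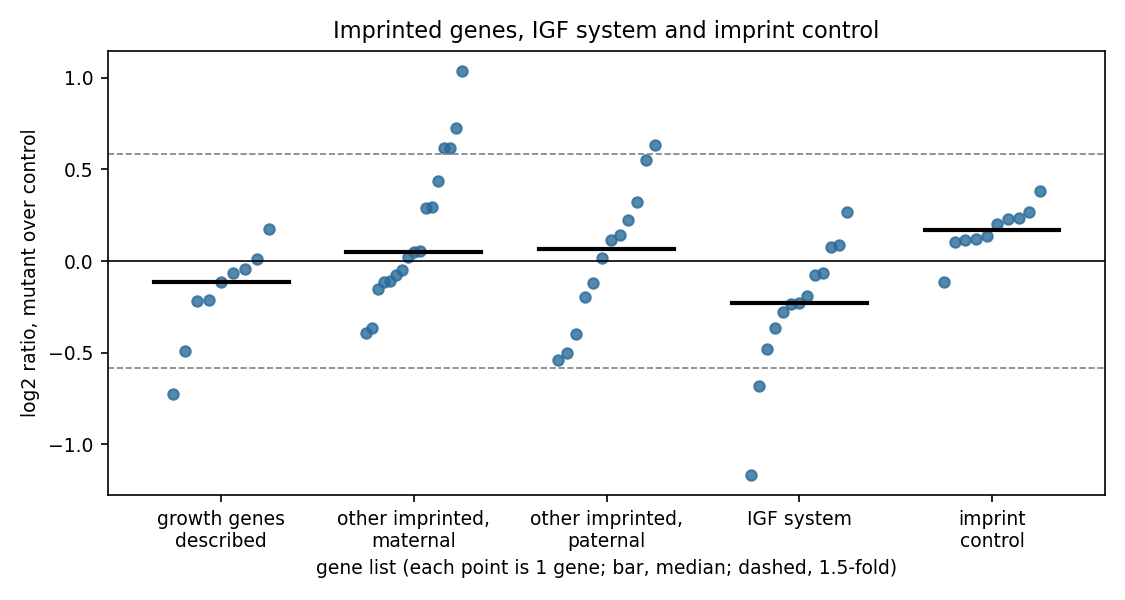
Log2 ratio of mutant over control for the measured genes of each list, 1 point per gene, with a black bar at the median and dashed lines at 1.5-fold. The medians are -0.11 for the 9 growth genes, 0.05 and 0.07 for the other maternal and paternal imprinted genes, -0.23 for the IGF system and 0.17 for imprint control.

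Endothelial and endocardial markers exceeded both floors, 12 of 12, with Cdh5 at 10886 and 10975, Emcn at 10527 and 11349 and Tek at 7653 and 7576. So did 11 of 12 myocardial and 10 of 13 epicardial markers, so passing the floors does not show how pure the sort was. Endothelial and endocardial signals summed to 60963 on the control and 63263 on the mutant array, with 8 of 12 higher and 4 lower. Of the 4, Robo4 at -0.72 and Cldn5 at -0.70 were at least 1.5-fold lower, and Nfatc1 was at -0.33 with 4 of its 5 measured probe sets lower. Cushion mesenchyme markers were mostly lower in the mutant, 10 of 12, with a summed signal of 72271 and 59690. Col3a1, Vcan and Col1a2 were the brightest, at -0.07, -0.50 and 0.06. At least 1.5-fold lower were 4 of the 12, against 6.61% of all measured genes: Lum at -2.02, Prrx1 at -0.75, and Postn and Prrx2 at -0.73. Dcn, at 0.59, was the 1 marker at least 1.5-fold higher, against 4.37%. Epicardial markers were higher, 10 of 10 measured, with sums of 5983 and 10144 and Tcf21, Upk3b and Krt18 as the brightest, while Msln and Muc16 were under the floor on both arrays. Of the other lists, 7 of 11 myocardial markers were higher (sums of 26390 and 29354; Tnni1, Myl7 and Tnnt2 brightest), and 5 of 7 of smooth muscle and pericytes were lower (sums of 11695 and 10140; Pdgfrb, Acta2 and Tagln brightest). Of 5 measured blood markers, 4 were lower, with sums of 12189 and 8300 and Hbb-y, Hba-x and Epor brightest, while Ptprc, Itga2b and Gata1 were under the floor on both arrays. Each of these sums takes all markers of its list that have a single-gene probe set, those under a floor included. The part of these cell types in the values of the growth genes was not tested. Tbx20 itself gave signal on all 3 of its probe sets in both arrays, at -0.25, -0.22 and -0.73, and since the exons between the loxP sites are not named in the labels, this does not check the deletion.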

How the data were processed

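One Affymetrix 1-colour array was made from control and 1 from mutant cells. The deposited values are intensities, linear signals that the authors made by MAS5, per the submitters' processing notes. This method scales each array by 1 factor, and the deposited columns both had a mean of 500 once 2% of values were trimmed at each end. Its version and the genome build: not given in the sources used here.

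Of 45101 probe sets, 64 were array controls, 34945 named 1 gene, 932 several and 9160 were not listed in the platform annotation; only those naming 1 gene were used. Gene identifiers matched the GRCm38.p6 gene table for 34741 of them. Signals were floored at each array's median, put on the log2 scale and subtracted. Each gene was represented by its brightest probe set (mean log2 signal) and counted as measured where that lay above the floor on both arrays. Calls are by size, 1.5-fold and 2-fold, with no test, since there was 1 array per genotype, and the number of arrays limits the precision.

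Alternatives were scaling to the median, quantile normalization, loess (span 0.3), a pseudocount, the 25th or 75th percentile as floor, the median over probe sets, plain _at probe sets and 3-fold. Another background correction was not possible from processed signals. Genes named were all members with every probe set, measured neighbours within 500 kb and Tbx20. Of each further list these were the highest and lowest 4 and brightest 3, and of each marker list the brightest 3. Also named are endothelial markers that were lower, cushion mesenchyme markers that reached 1.5-fold, and some genes that were not measured. Of the neighbours and the lists the text prints some. Members and lists were chosen with earlier results of these data known. Scripts were tested on simulated data with known changes, in Python 3.11.15 with pandas 2.3.3 and statsmodels 0.14.6.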

Additional observations from a re-analysis of the deposited data

How the results depend on the processing

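Over the 8 settings other than 3-fold, Meg3 was the only one of the 9 genes at least 1.5-fold lower in each, between -0.74 and -0.63. Dlk1 lay between -0.50 and -0.48 in the 7 that could give it. Plain _at probe sets gave no measured value for Dlk1, because its bright probe set is not a plain one. Igf2 and Mest were each higher in 2 of 8 settings, reaching 0.08 and 0.18, and Grb10, Ndn, Peg3 and Plagl1 also changed sign in at least 1. The median of the growth genes was -0.000199 after quantile normalization and 0.00408 after loess. That of the other imprinted genes was 0.12 after quantile normalization, -0.013 with a pseudocount and -0.067 with plain probe sets, and that of the IGF system was -0.084 with the median over probe sets. With the floor at the 25th percentile, 1 growth gene probe set was at least 1.5-fold higher, and 1 was at 2-fold in each direction. Plain probe sets left 10 of 15 lower, 2 of them by 1.5-fold, and 3 of 4 for Meg3. Over all genes, the lower floor gave 1569 genes lower and 920 higher at 1.5-fold and 537 and 233 at 2-fold. The higher floor gave 183 and 128, and 34 and 12. A pseudocount gave 25 genes higher at 2-fold, and 3-fold gave 19 lower and 5 higher. With a pseudocount 75.3% of calls at 1.5-fold were lower, against 60.2%. The cause of these shifts was not tested, beyond the different sets of probe sets that each floor or suffix leaves. No paired analysis was possible because there was 1 array per genotype, and for the same reason no array could be left out. Dim probe sets limit the rest: their SD between probe sets was 0.49 under a signal of 200.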
